A study of Mus musculus with 2 samples.

Results

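The kelch-like genes of the mouse (symbols Klhl and Kbtbd followed by digits) were described in DNase-seq data from newborn calf muscle. The rule took every GENCODE M21 gene with a protein-coding transcript and such a symbol, which gave 45 of 21853 genes, 36 named Klhl and 9 named Kbtbd. The rule reads gene names and no measured value. Klhl30, Klhl31, Klhl38, Klhl40 and Klhl41, all known for expression in striated muscle, are called the 5 muscle members, and the rest the 40 other members. The tissue was the gastrocnemius, the large calf muscle, of male B6CASTF1/J mice, the F1 hybrids of C57BL/6J and CAST/EiJ, at 4 days of age. Each label speaks of 3 males, and whether their muscles were pooled is not stated. The design held 1 group of 2 libraries, biological replicates 1 and 2 from separate tissue samples with a shared donor entry. No treatment, genotype or other tissue stood against them, so there was no contrast to test, and the values below are levels with the spread between these libraries.

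Kelch-like proteins are adaptors of the CUL3 ubiquitin ligase. Their BTB and BACK domains bind the cullin CUL3, which carries the RING protein RBX1, and the kelch repeats, folded as a propeller, hold the substrate that is to be ubiquitinated. In muscle the family is known for the thin filament of the sarcomere: KLHL40 and KLHL41 stabilise nebulin and its partners, and mutations in KLHL40, KLHL41 and KBTBD13 cause nemaline myopathy, a weakness with rod-shaped protein deposits in the fibres. DNase I cuts DNA that nucleosomes leave exposed, so a peak of cuts marks accessible chromatin such as an active promoter or enhancer.

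A promoter peak is here a peak that touches the 500 bp on either side of any annotated start of the gene's protein-coding transcripts. Peak height is the authors' cut density, which was turned into a rank within each library, a percentile from 0 (weakest) to 100 (strongest peak). A distal peak has its centre over 1 kb from every annotated transcript start and within 50 kb of the gene's most upstream start, and is shared if it overlaps a peak of the other library by 1 bp or more. Positions with a sign are distances in bp of a peak's centre from the most upstream start unless another start is named, negative upstream.

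The sequences on which the description turns are given on the strand of the gene, 5′ to 3′, from the C57BL/6J reference build GRCm38.p6, which does not hold the CAST/EiJ alleles of these hybrids. Distal peaks of 5 muscle members are shown with the E-box CAGCTG, the palindrome bound by myogenic factors such as MYOD1 and MYOG, in capitals. They lie at chr9:77637461-77637640 (plus strand, intron of Klhl31), chr15:58343361-58343540 (minus strand, between genes, upstream of Klhl38), chr9:121758061-121758280 (plus strand, an exon of the noncoding gene E530011L22Rik, upstream of Klhl40), chr2:69673917-69673986 (plus strand, intron of Klhl41) and chr1:91337472-91337594 (plus strand, intron of Espnl, upstream of Klhl30). In the Klhl31 peak the capitals also mark an MCAT element (CATTCC, read on the other strand) and the E-box CACGTG, and in the Klhl41 peak the MEF2 consensus.
Klhl31 intron peak: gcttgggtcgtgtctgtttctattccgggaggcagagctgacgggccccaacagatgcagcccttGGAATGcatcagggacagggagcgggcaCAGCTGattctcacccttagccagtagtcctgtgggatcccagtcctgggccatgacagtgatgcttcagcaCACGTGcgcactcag
Klhl38 upstream peak: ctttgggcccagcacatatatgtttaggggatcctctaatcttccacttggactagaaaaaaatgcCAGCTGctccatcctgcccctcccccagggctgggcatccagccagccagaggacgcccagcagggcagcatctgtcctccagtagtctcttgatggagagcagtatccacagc
Klhl40 upstream peak: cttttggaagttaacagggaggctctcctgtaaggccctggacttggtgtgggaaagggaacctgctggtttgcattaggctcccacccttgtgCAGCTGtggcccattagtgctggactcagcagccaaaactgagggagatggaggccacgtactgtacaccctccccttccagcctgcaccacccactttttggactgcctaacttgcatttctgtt
Klhl41 intron peak: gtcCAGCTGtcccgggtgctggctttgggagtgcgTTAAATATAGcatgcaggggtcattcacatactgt
Klhl30 upstream peak: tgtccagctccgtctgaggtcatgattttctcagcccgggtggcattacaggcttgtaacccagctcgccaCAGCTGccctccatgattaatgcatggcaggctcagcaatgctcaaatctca
The promoter peaks of Klhl28 (chr12:64965621-64965800, minus strand, outside every exon of a protein-coding gene) and Kbtbd12 (chr6:88627481-88627700, minus strand, at an internal start) are shown. Klhl28 ranked highest of all members, and Kbtbd12 highest of those that are CpG-poor at their most upstream start. The internal start at which the Kbtbd12 peak lay is not CpG-poor. Capitals mark CACGTG in Klhl28, and the E-box CACCTG and the MEF2 consensus in Kbtbd12.
Klhl28 promoter peak: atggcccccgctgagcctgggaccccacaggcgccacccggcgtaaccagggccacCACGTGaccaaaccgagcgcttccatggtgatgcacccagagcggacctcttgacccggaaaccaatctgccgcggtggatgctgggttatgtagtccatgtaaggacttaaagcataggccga
Kbtbd12 promoter peak: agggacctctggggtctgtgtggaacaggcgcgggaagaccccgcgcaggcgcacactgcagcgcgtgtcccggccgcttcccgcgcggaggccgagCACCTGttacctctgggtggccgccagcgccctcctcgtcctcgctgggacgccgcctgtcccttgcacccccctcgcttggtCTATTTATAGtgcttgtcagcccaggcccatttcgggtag

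The lists held 94295 peaks in replicate 1 and 123291 in replicate 2, with a median width of 180 bp in each, and 79.6% of the replicate 1 peaks overlapped a replicate 2 peak, as did 60.8% of the replicate 2 peaks a peak of replicate 1. Densities were whole multiples of 1 step in each library, and the step of replicate 1 was 2.03 times that of replicate 2; the depth in reads is unknown, so no counting interval is given. Of the markers examined for the tissue, 11 of 12 skeletal muscle genes were accessible at the promoter in both libraries (Tnnt3 in replicate 1 only), as were 5 of 6 fibroblast, 4 of 6 endothelial, 4 of 6 Schwann cell and 2 of 6 neuronal genes, and 0 of 6 macrophage and 0 of 6 hepatocyte genes. The shares were 91.7% for the muscle and 83.3% for the fibroblast genes, beside 64.1% of all protein-coding genes. The endothelial and Schwann cell shares (66.7% each) were near that of all genes. Among genes with a peak in both libraries, the median mean rank was 72.1 for the muscle set and 92.1 for all genes. It was 90.5 for the fibroblast, 85.5 for the Schwann cell, 69.0 for the endothelial and 42.0 for the neuronal set. The muscle promoters were thus mostly accessible, but ranked below the fibroblast and Schwann cell sets. Which cells contributed, and how much, cannot be read from such small sets. In such bulk tissue, fewer cells with an open site and a less open site in each cell cannot be told apart.

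Most members had an accessible promoter. A promoter peak was present for 40 of 45 members in replicate 1, where 65.3% of all protein-coding genes had one, and for 40 in replicate 2, where 67% had one. Both libraries showed a peak for 38 members (84.4%), beside 64.1% of all genes. Klhl1 and Klhl41 had a promoter peak in replicate 1 only, Klhl4 and Kbtbd11 in replicate 2 only, and Klhl10, Klhl30 and Klhl35 in neither library. The 38 promoters had a median mean rank of 91.0, with library medians of 89.9 and 92.0, next to 92.1 for the 14000 genes with such peaks. The mean rank passed 90 for 20 of the 38 members (52.6%) and for 57.6% of those genes, so their ranks lay near those of accessible promoters in general while the share with a peak was higher.

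The share with a peak followed the CpG content of the promoter, the observed over expected number of CG pairs in the 1001 bp around the most upstream start. In members with a ratio below 0.35, 5 of 9 had a promoter peak in both libraries, against 18.2% of all genes of that class. Of the members between 0.35 and 0.6 it was 10 of 12 (73.5% of all genes), and above 0.6 it was 23 of 24 (96.4% of all genes). The median ratio of the members was 0.680 and that of all genes 0.561. The median ratio of the family was thus above that of genes in general. Within the upper class its share was near the background. In the lower classes, which held few members, its share was above the background (55.6% below 0.35 and 83.3% between 0.35 and 0.6). The part of the CpG ratio in the family's share was not tested. Kbtbd12 belonged to the lowest class only by its most upstream start (ratio 0.13). Its peak lay at an internal start, 10360 bp downstream in replicate 1, where the ratio was 0.88. In each library 8 of the 40 strongest promoter peaks were nearest to a start other than the most upstream one.

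**Figure D1:**
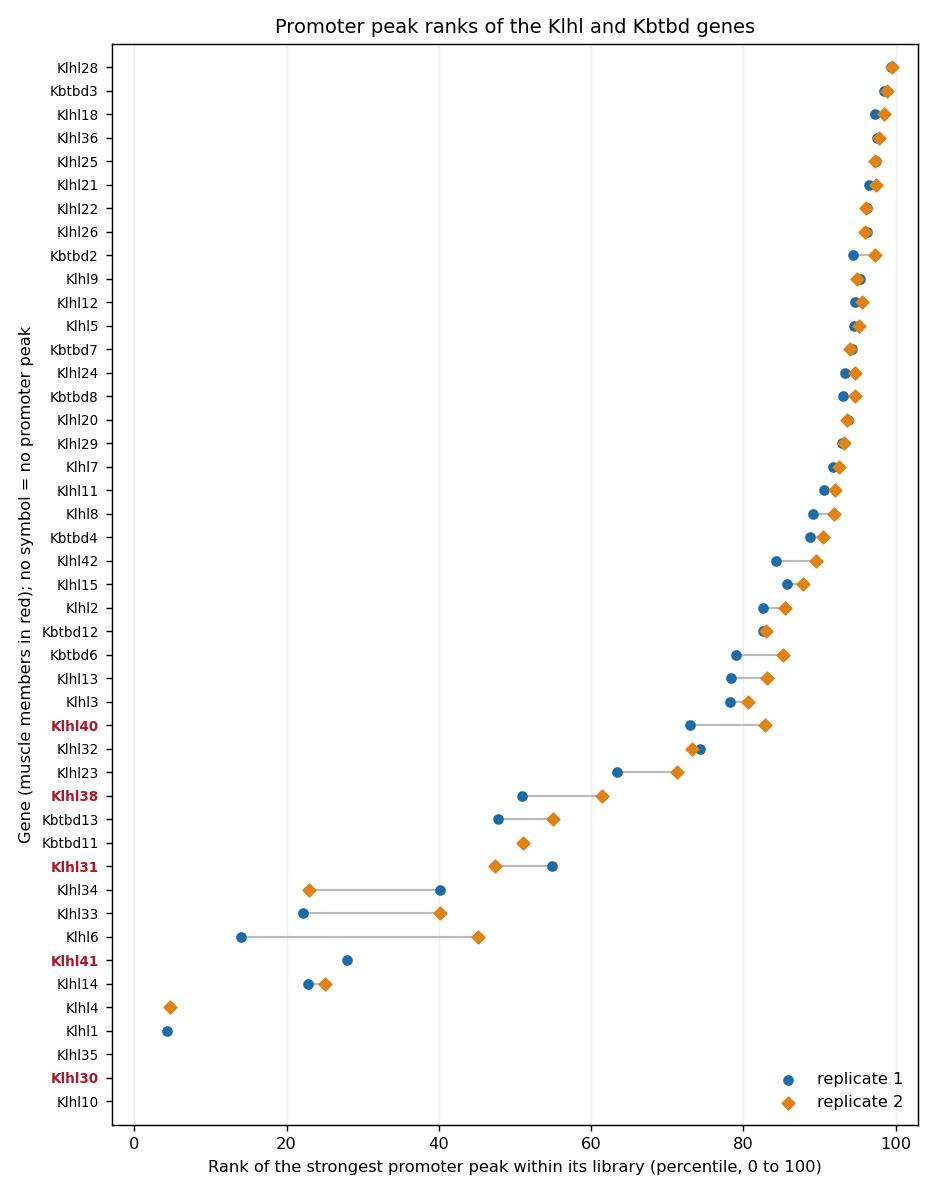
Rank of the strongest promoter peak of each of the 45 genes within its library (x axis, percentile), with 1 symbol per library, a grey line joining the libraries, and the 5 muscle members in red. Klhl28 leads at 99.4, the highest muscle member is Klhl40 at 77.9, and Klhl10, Klhl30 and Klhl35 have no symbol because neither library had a promoter peak.

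The promoter peaks of the muscle members were of middling rank. Of the 5, 4 had one in replicate 1, 3 in replicate 2 and 3 in both (60%), while 35 of the 40 other members (87.5%) had one in both. The muscle share was near that of all genes (64.1%). The median mean rank was 56.2 (range 51.1 to 77.9) for the 3 muscle members and 92.1 (range 23.9 to 99.4) for the 35 others. No muscle promoter reached a rank of 90. These groups of genes were not compared by a test, since genes are not replicates. They also differed in CpG ratio, with a median of 0.265 in the 5 muscle members and 0.699 in the 40 others. Members with a ratio below 0.35 and a peak in both libraries, among them Klhl31 and Klhl38, had a median mean rank of 51.1. All genes of that kind had 77.1. Klhl6 (29.6) and Klhl33 (31.2) of that class ranked below the 3 muscle members, and Kbtbd12 (82.8) above. The part of the CpG ratio in these ranks was not tested.

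Klhl40, which protects nebulin and leiomodin-3 from degradation, had the strongest promoter peak of the muscle members. Its density was 1.62 in replicate 1 and 1.40 in replicate 2, with ranks of 72.9 and 82.8, a mean of 77.9 ± 6.99 (SD, n = 2). This peak had the same bounds in both libraries (chr9:121778081-121778280) and was centred at +489, in the coding exon rather than over the start. Another peak covered the start itself. It was centred at +5 in replicate 1 with a rank of 61.8 and at +133 in replicate 2 with a rank of 58.0, so in both libraries the exon peak was the denser one.

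At Klhl38 the promoter peak had identical bounds in both libraries. The densities were 0.891 and 0.656 and the ranks 50.96 and 61.4, a mean of 56.2 ± 7.40 (SD, n = 2). It was thus a peak of middling height in either library. Klhl31, which is known for its part in the turnover of filamin C, had 1 promoter peak per library, over the start in replicate 1 (chr9:77636421-77636620) and shifted downstream in replicate 2 (chr9:77636501-77636800). Densities were 0.972 and 0.486 and ranks 54.8 and 47.4, a mean of 51.1 ± 5.28 (SD, n = 2). In replicate 2 the rank was below 50. The start that RefSeq gives for Klhl31 lies 232 bp downstream of the GENCODE start, within 500 bp of it, and that of Klhl40 84 bp upstream.

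Klhl41, an adaptor that stabilises nebulin and binds the actin-anchoring protein NRAP, had a promoter peak in 1 library only. In replicate 1 it spanned chr2:69670072-69670210 with a density of 0.554 and a rank of 27.9, and the lowest FDR in the promoter window was 0.00364. In replicate 2 no base of the window was listed with an FDR below 0.05, and the nearest peak lay at +3790 in the intron. Klhl30 lacked a promoter peak, and no base of its window was listed with an FDR below 0.05 in either library. Its nearest shared peak was at -3905 in a UTR of the neighbouring gene Espnl, with densities of 1.24 and 0.996 and ranks of 64.6 and 75.2. So 2 of the 5 muscle genes lacked a reproduced promoter peak and had their nearest shared accessible site between 3 and 4 kb away.

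Among the other members linked to muscle, Kbtbd13, the nemaline myopathy gene, had promoter densities of 0.830 and 0.566 and ranks of 47.7 and 55.0 (51.3 ± 5.12 SD, n = 2). Its CpG ratio was 0.85, and of the 23 members above a ratio of 0.6 with a peak in both libraries it ranked lowest. Kbtbd12 had densities of 2.49 and 1.41 and ranks of 82.6 and 83.0 (82.8 ± 0.28 SD, n = 2), above each of the muscle members. Of 14 genes known to cause nemaline myopathy, including Klhl40, Klhl41 and Kbtbd13, a promoter peak was present in both libraries for 11 (78.6%). The share of all genes was 64.1%. The median mean rank of the 11 was 71.9, beside 92.1 for all genes with such peaks. The highest were Tpm3 (94.2), an actin-binding tropomyosin, and Cfl2 (91.3), the muscle cofilin, and the lowest was Mypn (26.0), a Z-disc protein.

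The strongest promoters of the family were those of other members. Klhl28 had densities of 12.5 and 7.53 and ranks of 99.4 and 99.5. Kbtbd3 followed with ranks of 98.5 and 98.9, and Klhl18, an adaptor of Aurora A, with 97.3 and 98.5. Each of these shared its promoter with a divergent neighbour that starts within 1 kb on the other strand, Togaram1 beside Klhl28, Aasdhppt beside Kbtbd3 and Kif9 beside Klhl18. Such a peak cannot be assigned to either gene alone. Among these peaks, only that of Kbtbd3 held an annotated protein-coding start of the neighbour. Klhl18 had another, weaker promoter peak in both libraries that was centred in an exon of Kif9. In all, 6 members had such a neighbour, and the 5 of them with a promoter peak in both libraries had a median mean rank of 97.9, beside 86.9 for the 33 members without one. Klhl36 (97.7 ± 0.23 SD, n = 2) and Klhl25 (97.3 ± 0.04), whose product targets a translation repressor, ranked next without a divergent neighbour.

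Of the adaptors with known roles in cell division, Klhl21 had a mean rank of 97.0 ± 0.65 (SD, n = 2), Klhl22 96.2 ± 0.11 and Klhl9 95.2 ± 0.23. Klhl13, the X-linked partner of Klhl9 and Klhl21 in the ubiquitination of Aurora B, was lower at 80.7 ± 3.37. That is near the median of 80.2 for all X-linked genes with a promoter peak in both libraries. Klhl22 acts on PLK1 and on DEPDC5. Klhl26 (96.1 ± 0.21) was the remaining gene among the 8 other members of highest rank.

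Of the adaptors that act on signalling, transport and metabolism, Klhl12, known for Dishevelled and for the coat protein SEC31, reached 95.1 ± 0.62 (SD, n = 2) and Klhl20 93.7 ± 0.10. Kbtbd2, an adaptor of the PI3-kinase subunit PIK3R1, had ranks of 94.4 and 97.3. Kbtbd8, which monoubiquitinates TCOF1 and NOLC1, stood at 93.8 ± 1.10. Klhl2 (84.1 ± 2.05) and Klhl3 (79.4 ± 1.65), both adaptors for WNK kinases, were lower. Kbtbd6 and Kbtbd7, which act together on TIAM1 and are neighbours on chromosome 14, differed, with ranks of 79.0 and 85.3 for Kbtbd6 and 94.2 and 94.0 for Kbtbd7. Klhl15, which acts on a subunit of the phosphatase PP2A, had 2 adjacent promoter peaks, and the stronger one was not the same in the 2 libraries (85.8 and 87.9).

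The remaining members of this kind ran from Klhl42 (86.9 ± 3.66 SD, n = 2), an adaptor for the microtubule-severing enzyme katanin, over Kbtbd4 (89.6 ± 1.16), which acts on the CoREST complex and shares its promoter with Ndufs3, to Klhl24 (94.0 ± 0.91), mutated in a skin-blistering disease, and Klhl5 (94.8 ± 0.48). Klhl8, Klhl11, Klhl7, mutated in retinitis pigmentosa, and Klhl29 lay between them, at 90.6, 91.3, 92.1 and 93.1. Klhl32 (73.8 ± 0.77) and Klhl23 (67.4 ± 5.52) were lower, although their CpG ratios were above 0.6. Klhl23 had 2 overlapping promoter peaks in each library.

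Klhl14 and Klhl6 are known from B cells. The ranks of Klhl14 were 22.8 and 25.1, and those of Klhl6 14.0 and 45.1, a mean of 29.6 ± 22.0 (SD, n = 2), which is the widest spread in the family. Of 6 lymphocyte genes examined beside them, 5 lacked a promoter peak in both libraries, and Pax5 had one at 91.7 ± 0.08. Klhl33 (31.2 ± 12.7) and Klhl34 (31.5 ± 12.1) were low in both libraries but in opposite order, Klhl33 with ranks of 22.2 and 40.2 and Klhl34 with 40.1 and 23.0. Klhl1, a brain gene, had a peak in replicate 1 at a rank of 4.32, and Klhl4 one in replicate 2 at a rank of 4.71, both among the weakest peaks of their library. In the library without it, Klhl4 had its nearest peak 137755 bp away.

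For Klhl10, which is needed in spermatids, the nearest peak was at -837, outside the promoter window and in a UTR of the divergent gene Nt5c3b, with ranks of 90.3 and 91.8. Klhl35 had its nearest peak at +2626 in replicate 1 (rank 84.5) and at +2096 in replicate 2 (rank 70.0), inside the gene. Kbtbd11 had a broad, weak promoter peak in replicate 2 (density 0.523, rank 51.1), while the nearest peak of replicate 1 was centred at +1035 with a density of 2.82 and a rank of 84.7. For Klhl10 and Klhl35, accessible DNA was thus present close by but not in the promoter window. For Kbtbd11 this held in replicate 1 only.

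**Figure D2:**
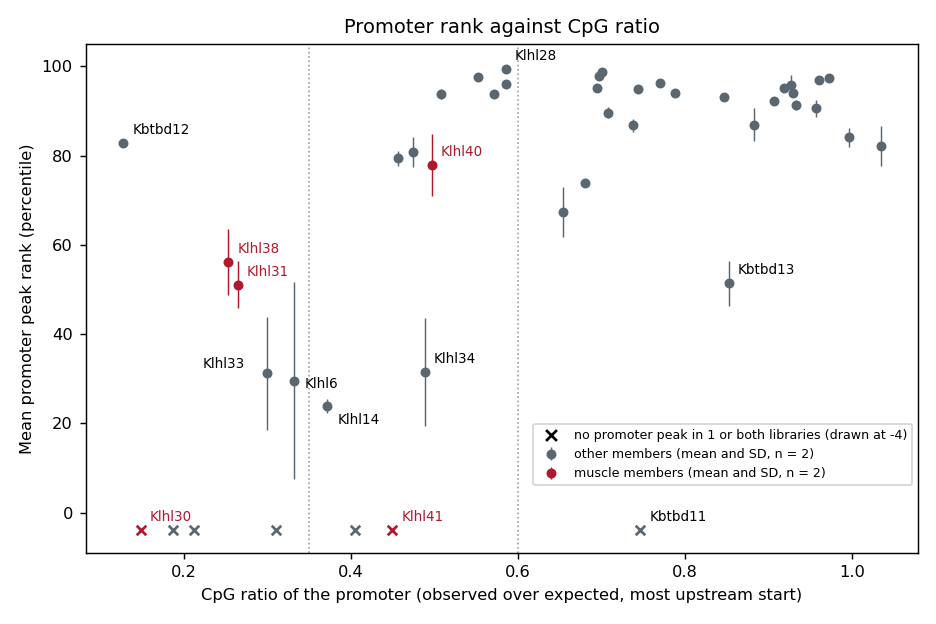
Mean promoter rank over the 2 libraries (y axis, percentile, bars are SD, n = 2) against the CpG ratio of the 1001 bp around the most upstream start (x axis), for the 45 genes. Dotted lines mark ratios of 0.35 and 0.6, crosses below 0 mark genes without a promoter peak in both libraries, and no gene above 0.6 other than Kbtbd13 and Kbtbd11 falls below a rank of 67.

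Ranks of the 2 libraries were close for most members. The SD between them had a median of 1.08 rank units over the 38 members and 1.24 over all genes. The rank was higher in replicate 2 for 29 of the 38. The raw density was higher in replicate 1, by a median factor of 1.60 for the members and 1.52 for all genes. The scale of the densities is not stated, so they were read only within a library, and what sets this factor was not tested. The strongest promoter peak was centred within 100 bp of a start for 27 of 40 members in each library. It lay in a coding exon for 4 members in replicate 1 and 6 in replicate 2, the others being in UTRs, introns, noncoding exons or between genes.

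Distal accessibility showed a different order. At least 1 shared distal peak lay within 50 kb for 32 of 45 members (71.1%), beside 73.3% of all genes, and the median was 2 peaks for the members and 2 for all genes. Each of the 5 muscle members had such peaks, 5 at Klhl30 and Klhl31 and 4 at Klhl38, Klhl40 and Klhl41, a median of 4, while the 40 other members had a median of 1.5. The muscle members were therefore low in the family by promoter rank and above its median by distal peaks. The counts move with the window and the peak list, and values under other settings are given in the closing section.

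Most distal peaks fell to Klhl26, with 8, and Klhl22, with 7. Klhl21, Klhl25, Klhl3, Klhl36 and Kbtbd11 had 6 each, a tie that took the group from 6 genes to 7. At Kbtbd11, whose promoter peak was in 1 library only, the 6 peaks all had Kbtbd11 as the nearest start, and the strongest, at -18085 in an intron of Arhgef10, had a mean rank of 88.6 ± 0.66 (SD, n = 2). Its peaks at -7347 and -7103 overlapped the same replicate 2 peak and were counted separately. The strongest shared distal peak of any member was at -16331 upstream of Klhl8, with densities of 5.87 and 4.00 and a mean rank of 94.8 ± 1.26. Klhl28, whose promoter ranked highest, had none, and neither had the 4 X-linked members Klhl4, Klhl13, Klhl15 and Klhl34, on a chromosome where 51.6% of genes had one or more.

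**Figure D3:**
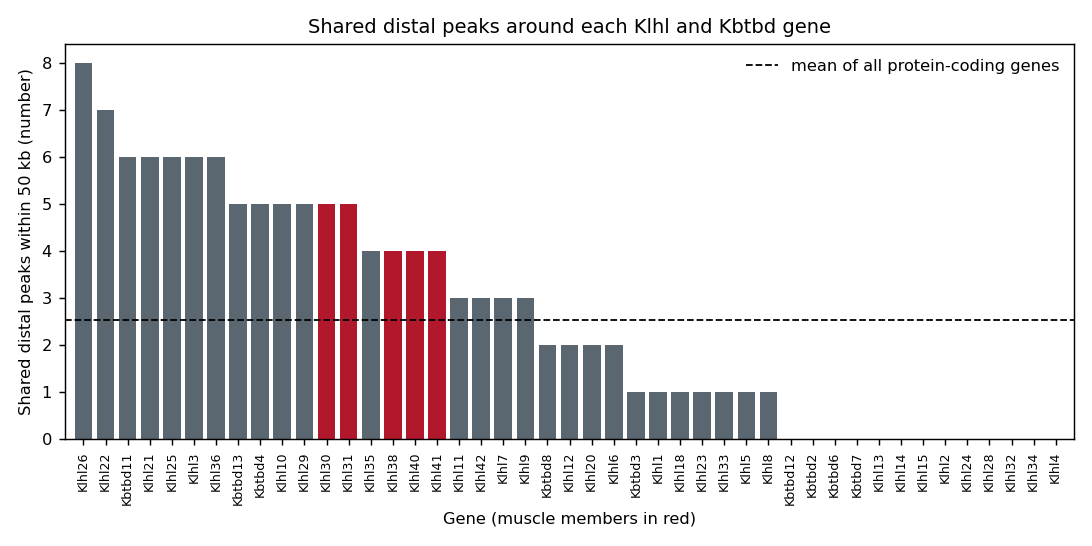
Number of shared distal peaks within 50 kb of each of the 45 genes (bars), with the muscle members in red and a dashed line at the mean of all protein-coding genes (2.53). Klhl26 has 8, the muscle members have 4 or 5 each, and 13 genes have none.

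Over the family, the 118 pairs of gene and shared distal peak came from 116 peaks. They had a median mean rank of 62.1, against 56.0 for all 45755 shared distal peaks, and 6 of the 116 (5.17%) ranked over 90, beside 3.81% of all. The 22 peaks of the muscle members had a median mean rank of 57.5 and ranged from 26.2 to 83.5. Of these, 8 lay in introns, 8 between protein-coding genes, 3 in coding exons, 2 in UTRs and 1 in a noncoding exon. The muscle gene's own start was the nearest protein-coding start for 13 of the 22, so the other 9 lay closer to a neighbour.

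At Klhl31 all 5 peaks had Klhl31 as the nearest start. The peak printed above at +1050, in the intron, had densities of 1.69 and 0.850, ranks of 74.0 and 70.6 and a mean of 72.3 ± 2.43 (SD, n = 2). It thus ranked above the gene's promoter peak in both libraries (54.8 and 47.4). Measured from the RefSeq start, 232 bp downstream of the GENCODE start, its centre lies within 1 kb and would not count as distal. The peak of highest mean rank, at -39940 between genes, had densities of 1.47 and 1.65 and ranks of 70.2 and 85.8 (78.0 ± 11.0), and was below the one at +1050 in replicate 1. A pair at +19200 and +19590 lay in the last part of the gene, in coding sequence and UTR, with mean ranks of 58.3 and 56.6.

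Klhl38 had its strongest distal peak at -19281, printed above, with densities of 1.76 and 0.963 and ranks of 75.1 and 74.2. The mean of 74.7 ± 0.60 (SD, n = 2) lay above that of its promoter (56.2). Its other peaks stood at -46181 (66.5 ± 4.33), -36331 (47.6 ± 11.9) and -1300 (26.2 ± 4.86). Around Klhl40, the peak at -19521 had densities of 1.92 and 1.19 and ranks of 77.2 and 79.5, a mean of 78.4 ± 1.63, close to the promoter's 77.9. This peak and those at -16233 (60.3 ± 2.14) and -14682 (69.4 ± 3.16) were nearest to starts of Zfp651, and the last, at +45069 (49.3 ± 9.06), to Ccdc13, so none of the 4 had Klhl40 as its nearest start.

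The peaks of Klhl41 fell into 2 pairs. At -34920 and -34120, between genes and nearest to Bbs5, the mean ranks were 56.2 ± 3.64 and 69.9 ± 6.33 (SD, n = 2). In the intron at +3660 and +3831, replicate 1 had 2 peaks of rank 19.995 and 17.2 where replicate 2 had 1 peak of rank 41.9 that overlapped both, so this pair was 1 site in replicate 2. Klhl30 had its strongest peak at +29664 in an intron of Ilkap, with densities of 2.17 and 1.78 and a mean rank of 83.5 ± 5.00, the highest of the 22. The remaining 4, at -37635, -13483, -5894 and -3905, lay in Scly and Espnl with mean ranks from 49.4 to 69.9.

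**Figure D4:**
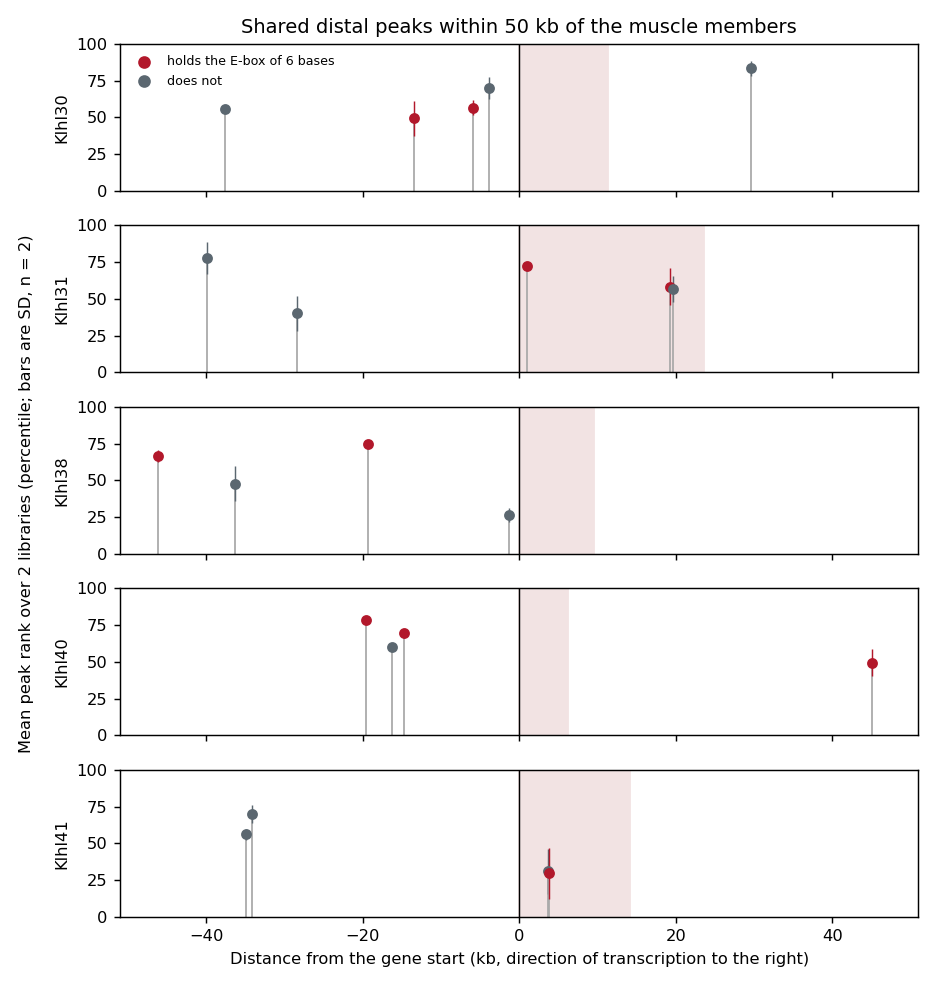
Shared distal peaks around the 5 muscle members by distance from the most upstream start (x axis, kb) and mean rank over the 2 libraries (y axis, percentile, bars are SD, n = 2). Red points hold the E-box recognised by myogenic factors (10 of 22), shading marks the gene up to 50 kb, and the highest point is the peak in Ilkap downstream of Klhl30 at 83.5.

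Sequence motifs were counted on both strands, as descriptions of letters and not as binding sites. CAGCTG was held by 10 of the 22 muscle distal peaks (45.5%), by 31 of the 116 distal peaks of the family (26.7%) and by 27.4% of all shared distal peaks. The 22 peaks come from 5 places in the genome, were chosen with earlier results known, and had a median width of 180 bp against 168 bp for all. Each muscle member had at least 1 such peak. CACCTG was in 0 of the 22 and in 14.0% of all shared distal peaks, and CACGTG in 2 of the 22 against 3.69%. The MEF2 consensus occurred in 1 of the 22, the Klhl41 intron peak, and in 0.983% of all.

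Footprints, short stretches within peaks that are protected from cutting, were listed in both libraries for 18 of the 22 muscle distal peaks (81.8%), 102 of the 116 of the family (87.9%) and 83.9% of all shared distal peaks. None of the 10 CAGCTG matches in the muscle peaks lay in a footprint in both libraries. The matches at +1054 of Klhl31 and -19536 of Klhl40 lay in a footprint in replicate 1, and the one at +45077 of Klhl40 in replicate 2. In the family as a whole, 4 of 39 CAGCTG matches in distal peaks (10.3%) lay in a footprint in both libraries, beside 7.91% of the matches in all shared distal peaks, among them those at -25009 of Klhl21 and -49456 of Klhl6. For CACCTG it was 3 of 13 (23.1%, all peaks 22.8%), among them those at -1505 of Kbtbd13 and -49382 of Klhl20.

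In the 1001 bp promoters, GGGCGG, the GC box of SP factors, was held by 34 of 45 members (75.6%) and 60.8% of all genes, but by 1 of the 5 muscle members, Klhl31. AP-1 sites (TGANTCA) were in 16 of 45 (35.6%, all genes 18.6%), 4 of them muscle members. CAGCTG was in 27 of 45 (60.0%, all genes 41.7%), 3 of them muscle members, and the MEF2 consensus in 7 of 45 (15.6%, all genes 9.22%), again 3 of them muscle members. Within the promoter peaks themselves, 22 of 67 GC boxes (32.8%) lay in a footprint in both libraries, the same share as in the promoter peaks of all genes (32.8%). Of 3 CACGTG matches 1 did (33.3%, all genes 20.5%), the one at -210 of Klhl28, in capitals above. Of 8 ETS sites (CCGGAAG) 1 did, at +2 of Kbtbd4, a share of 12.5% that lay below the 17.7% of all genes. The MEF2 match in the Kbtbd12 peak lay in none.

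Of 64 genes listed for the CUL3 system, 62 had a promoter peak in both libraries (96.9%), beside 64.1% of all genes, with a median mean rank of 96.4. Their median CpG ratio was 0.766, and among all genes above 0.6 the share with such a peak was 96.4%, so the pathway's share is near that of CpG-rich promoters. All 23 genes of the ligase and its control by NEDD8 and the COP9 signalosome did, with a median of 96.7. Cul3 itself had ranks of 96.5 and 97.1 and Rbx1 of 99.5 and 99.7. Uba3, of the NEDD8-activating enzyme, stood at 99.7 ± 0.05 (SD, n = 2), as did Cand1, the exchange factor of cullins, at 99.7 ± 0.04. The muscle-expressed Cand2 was lowest of the 23 at 82.8 ± 2.97. Of kelch relatives outside the naming rule, Keap1 stood at 88.8, Enc1 at 94.2 and Ivns1abp at 98.3, each with a peak in both libraries, as had the 9 other BTB adaptors such as Spop (97.7).

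Known partners and substrates had a promoter peak in both libraries in 26 of 28 cases, with a median mean rank of 96.0. The 2 exceptions, each with a peak in replicate 2 only, were Lmod3 (rank 50.5) and Nrap (37.96), the partners of KLHL40 and KLHL41. Neb, which encodes nebulin, had ranks of 53.9 and 59.6 and Flnc, which encodes filamin C, 83.2 and 83.1. Nfe2l2, the substrate of KEAP1, stood at 98.9 ± 0.01 (SD, n = 2), and Wnk1, that of KLHL2 and KLHL3, at 97.8 ± 0.02. Wnk4, another WNK kinase, was lower at 76.5 ± 0.18, and Plk1 stood at 86.7 ± 1.61. Neb thus lay within the range of the 3 muscle members with a promoter peak in both libraries (51.1 to 77.9), as did Wnk4, and Flnc above it.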

How the data were processed

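DNase-seq of 2 gastrocnemius libraries of 1 group was analysed from interval lists on mm10, per the file headers and listings. The deposited peak lists give the authors' cut density (signal), read only as ranks within a library. The deposited FDR lists give a q-value per stretch of bases, below 0.05. The deposited footprint lists carry the constant 0.01, with no scale stated, so footprints were used as present or absent. Neither aligner nor peak caller is given in the sources used here. The longer of each library's 2 peak lists was used. Lists hold overlapping peaks. At promoters the strongest was taken, while shared distal peaks were counted as replicate 1 peaks without merging.

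Starts came from GENCODE M21 and sequence from GRCm38.p6 (RefSeq). Peak and footprint overlaps, ranks and motifs were computed with Python 3.11.15, numpy 2.4.6, pandas 2.3.3 and pysam 0.24.0, and FDR overlaps with bedtools 2.31.1. The functions were tested on simulated peaks. No test was made, since 1 group gives no contrast. Members, gene lists, motifs and naming rules (the muscle members, the 8 other members of highest rank, members with a peak in 1 library or none, those with most distal peaks, Kbtbd12 and Kbtbd13) were chosen with earlier results of these data known. Further genes are named by their known role. Alternatives were promoter widths of 200 and 1000 bp, other start rules, peak lists, distal windows and overlaps, and each library alone. Some items are not reported here.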

Additional observations from a re-analysis of the deposited data

How the results depend on the processing

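Of the 52 values recomputed under other settings, 42 stayed within 1.5 times the count or within the SD between libraries. The number of members with a promoter peak in both libraries was between 32 (the strongest 50% of peaks) and 41 (1000 bp), and 35 with the shorter lists, which lost Kbtbd13, Klhl6 and Klhl14. With the most upstream start only, Kbtbd12 and Klhl14 were lost (36). At 1000 bp Kbtbd11, Klhl1 and Klhl10 were gained. The muscle count was between 2 and 4. The median promoter rank of the members fell to 86.6 with the shorter lists, and was 88.99 without replicate 2 and 91.2 without replicate 1. The median of shared distal peaks per member was 1 at 25 kb, with the shorter lists and with nearest starts only, 4 at 100 kb, and between 2 and 4 when 1 library was left out, which drops the requirement of sharing. For the muscle members it was 3 at 25 kb, 6 at 100 kb, 2 with the shorter lists, 3 with nearest starts only, and between 5 and 6 with 1 library left out. In each of these settings the muscle median was above that of all members. No paired analysis was possible because there was 1 group. The depth in reads is unknown, so whether a peak missing from 1 library was absent or undetected there was not tested.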
